A study of Mus musculus with 10 samples.

Results

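The transcripts of 9 enzymes and enzyme subunits of the tricarboxylic acid (TCA) cycle were followed in bulk mRNA sequencing of mouse lung tumors. The members were the rows of the count table whose gene symbol was Cs, Idh3a, Idh3b, Idh3g, Ogdh, Suclg1, Sdhb, Fh1 or Mdh2. They are 9 of 39017 genes in the table, and all 9 were among the 15922 genes that passed the filter on low counts. None of the 9 passed the test of a difference between the libraries labelled Glut1-KO and the control libraries, and the values of both groups overlapped for each of them. The member that came closest within a subset was Idh3a, which was lower than in every control library in the 3 female libraries labelled Glut1-KO and lay inside the control range in the 2 male ones.

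All tumors arose in mice of strain C57BL/6 after Cre delivered to the lung by the adenovirus Ad5CC10-Cre, whose promoter is active in CC10-positive airway cells, and all were taken 20 weeks and 1 day later. Both groups carried K-rasLSL-G12D/WT (an oncogenic K-ras allele silent until Cre acts) and p53Fl/Fl (both p53 copies removed by Cre). These mice are called KP, and KPG1 mice carried Glut1Fl/Fl in addition, so that Cre also removes the glucose transporter Glut1, encoded by Slc2a1. The 5 control libraries were all male, and their genotype label is heterozygous fl/wt, whereas the series design calls this arm Glut1-WT. The study's methods state that controls could be wild type or heterozygous for the floxed Slc2a1 allele, with no difference seen in tumor development. Of the 5 libraries labelled Glut1-KO (homozygous fl/fl), 3 were female and 2 male, so that sex and genotype cannot be told apart for the females. RNA came from macrodissected tumors that had been dissociated and depleted of CD45-positive cells on magnetic beads. The sequenced material was therefore a mixture of tumor cells and remaining stroma, in which fewer cells of a type and less RNA per cell cannot be told apart.

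The TCA cycle oxidizes acetyl groups in the mitochondrial matrix. Citrate synthase joins acetyl-CoA to oxaloacetate, isocitrate and 2-oxoglutarate are then decarboxylated with release of NADH, and the carbon returns through succinate, fumarate and malate to oxaloacetate. Acetyl-CoA is made in part from glucose-derived pyruvate, and glutamine can enter as 2-oxoglutarate.

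Sequencing depth was 35250991 to 49760462 counts per library, and each member had at least 1157 counts in every library. Slc2a1, the targeted gene, was at 73.2 to 118 CPM (a gene's counts relative to the library's total, scaled between libraries by the TMM method) in the controls and at 60.3, 42.5 and 34.6 CPM in female libraries 1, 2 and 3 labelled Glut1-KO. In male libraries 4 and 5 labelled Glut1-KO it was at 92.4 and 103 CPM, inside the control range, so the targeted transcript did not bear out the label of these libraries. Over all 5 against 5 libraries Slc2a1 was not called (log2 difference -0.62, SE 0.29, limma with Benjamini-Hochberg adjustment, adjusted p = 0.658). Epithelial markers were abundant (Sftpc 6329 CPM or more in each library, Epcam 352 CPM or more). Leukocyte markers were low, at a summed 35.3 to 58.4 CPM in controls and 44.0 to 79.8 CPM in libraries labelled Glut1-KO, with 10 of 11 higher by sign and a median log2 difference of 0.95. limma called 0 of the 11, while 7 had an unadjusted p under 0.05 (7.68% of all genes tested did) and 6 lay above every control (1.85% of all genes had groups without overlap, either way). Endothelial markers were higher by sign for 12 of 12 genes (median log2 difference 0.65, 1 with an unadjusted p under 0.05). Ciliated cell markers were lower for 10 of 10 (median -1.26, 1) and club cell markers for 8 of 10 (median -0.75, 1). Genes known to respond to tissue dissociation were lower for 15 of 16 (median -0.32, 6, and 3 below every control). Again 0 were called in each of these lists. The part of these differences in the levels of the members was not tested. Numbers in the names of the table's columns recur between libraries, giving 2 distinct numbers among controls and 4 among libraries labelled Glut1-KO. Both male libraries labelled Glut1-KO share 1 number, the 3 female ones have 1 each, and the 5 controls share 2. No label says what the numbers mark. If they mark mice, the controls are 2 mice and the male arm is 1, and the s.d. of these groups, the exact permutation p-values and the fits over 10 libraries do not cover the spread between mice. A fit on counts summed per number (2 against 4 sums) called 0 members, with a median log2 difference of -0.11.

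Per kilobase of exon, which allows levels of different genes to be set beside each other, the 9 transcripts spanned a wide range in the same libraries. Mdh2, malate dehydrogenase 2, was highest at 62.8 ± 9.41 CPM per kb (mean ± s.d., n = 5) in controls and 54.4 ± 10.4 in libraries labelled Glut1-KO. Ogdh followed at 52.5 ± 10.3 and 47.4 ± 9.24 CPM per kb, and Cs at 44.9 ± 4.96 and 39.0 ± 8.10. The non-catalytic isocitrate dehydrogenase subunits came next, Idh3b at 34.7 ± 7.94 and 35.4 ± 4.04 CPM per kb and Idh3g at 32.6 ± 4.08 and 28.5 ± 4.99. A group of 3 similar levels followed, made up of Sdhb (26.7 ± 3.21 and 26.7 ± 5.74), Fh1 (23.6 ± 1.73 and 25.4 ± 2.36) and Suclg1 (21.9 ± 1.23 and 25.8 ± 3.65). Idh3a, the catalytic subunit, was last in each of the 10 libraries, at 10.4 ± 1.94 and 7.89 ± 2.57 CPM per kb.

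**Figure D1:**
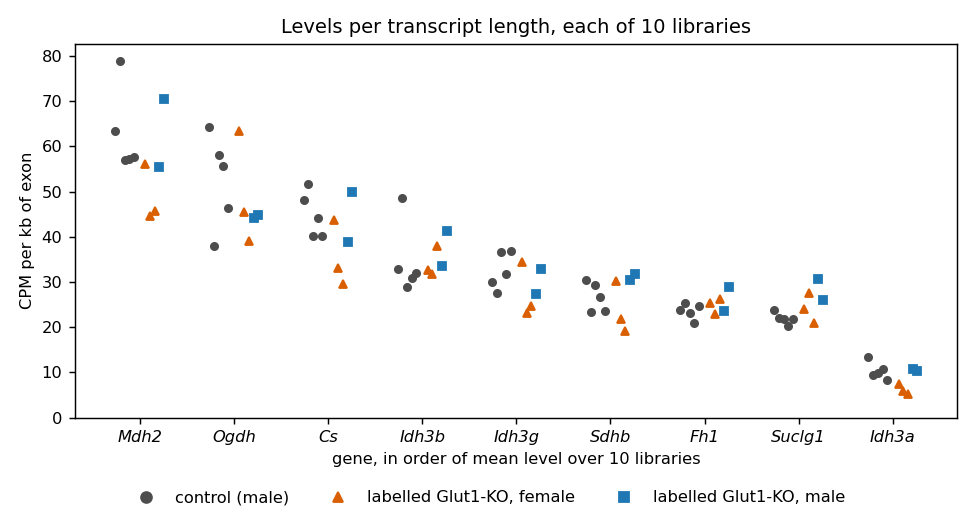
Level of each member in CPM per kilobase of exon (y axis) for each of the 10 libraries, with genes ordered by their mean (x axis), circles for male controls, triangles for female and squares for male libraries labelled Glut1-KO. Mdh2, Ogdh and Cs sit above the rest, and Idh3a sits below every other member in all 10 libraries, between 5.12 and 13.5 CPM per kb.

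Neighbors in this order were mostly not separated beyond their spread. Mdh2 exceeded Ogdh in 6 of 10 libraries, Ogdh exceeded Cs in 8, and Cs exceeded Idh3b in 9. Idh3b exceeded Idh3g in 6, Idh3g exceeded Sdhb in 8, Sdhb exceeded Fh1 in 6, and Fh1 exceeded Suclg1 in 8. The only step that held in all 10 libraries was that from Suclg1 down to Idh3a. A transcript level does not give the amount of protein, and exon lengths were the union of all annotated exons of a gene, which lowers the per-kilobase value of a gene with long minor exons.

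Citrate synthase, encoded by Cs (ENSMUSG00000005683, chr10:128337734-128362479, plus strand, GRCm38), opens the cycle. Cs was at 278, 298, 232, 255 and 233 CPM in control libraries 1 to 5 and at 253, 192, 171, 224 and 288 CPM in libraries 1 to 5 labelled Glut1-KO. The groups overlapped, although libraries 2, 3 and 4 labelled Glut1-KO lay below every control. The log2 difference was -0.22 (SE 0.15, 95% confidence interval -0.55 to 0.11, limma with Benjamini-Hochberg adjustment, adjusted p = 0.760), and exact permutation of the group labels of the libraries (2-sided) gave p = 0.190. Csl, a gene 91.9% identical to Cs over 1522 aligned bases, held at most 20 counts in any library.

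NAD-dependent isocitrate dehydrogenase, which makes 2-oxoglutarate, is built from the catalytic subunit Idh3a and the subunits Idh3b and Idh3g. Idh3a (ENSMUSG00000032279, chr9:54586334-54604661, plus strand) was at 68.4, 48.2, 50.02, 54.5 and 42.3 CPM in control libraries 1 to 5. In libraries 1 to 5 labelled Glut1-KO it was at 37.4, 29.6, 26.0, 54.8 and 52.3 CPM. The first 3 of these, all female, lay below every control, and the male libraries 4 and 5 lay among the controls. Over 5 against 5 libraries the log2 difference of Idh3a was -0.45 (SE 0.22, 95% interval -0.93 to 0.04, limma adjusted p = 0.677, exact permutation p = 0.127).

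Idh3b (ENSMUSG00000027406, chr2:130279309-130284547, minus strand) was at 112, 166, 98.9, 106 and 110 CPM in control libraries 1 to 5 and at 112, 109, 130, 115 and 141 CPM in libraries 1 to 5 labelled Glut1-KO. Control library 2 stood above all others, and the groups overlapped throughout. Idh3g (ENSMUSG00000002010, chrX:73778963-73786897, minus strand) was at 81.1, 74.4, 98.9, 85.8 and 99.4 CPM in controls and at 93.1, 62.7, 66.4, 73.7 and 88.9 CPM in libraries labelled Glut1-KO. Libraries 2, 3 and 4 labelled Glut1-KO were lower for Idh3g than any control, while libraries 1 and 5 lay within the control range. The log2 differences were 0.05 for Idh3b (SE 0.15, limma adjusted p = 0.952) and -0.20 for Idh3g (SE 0.14, limma adjusted p = 0.768). Idh3b shares 5 exon bases with Nop56 on the opposite strand.

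**Figure D2:**
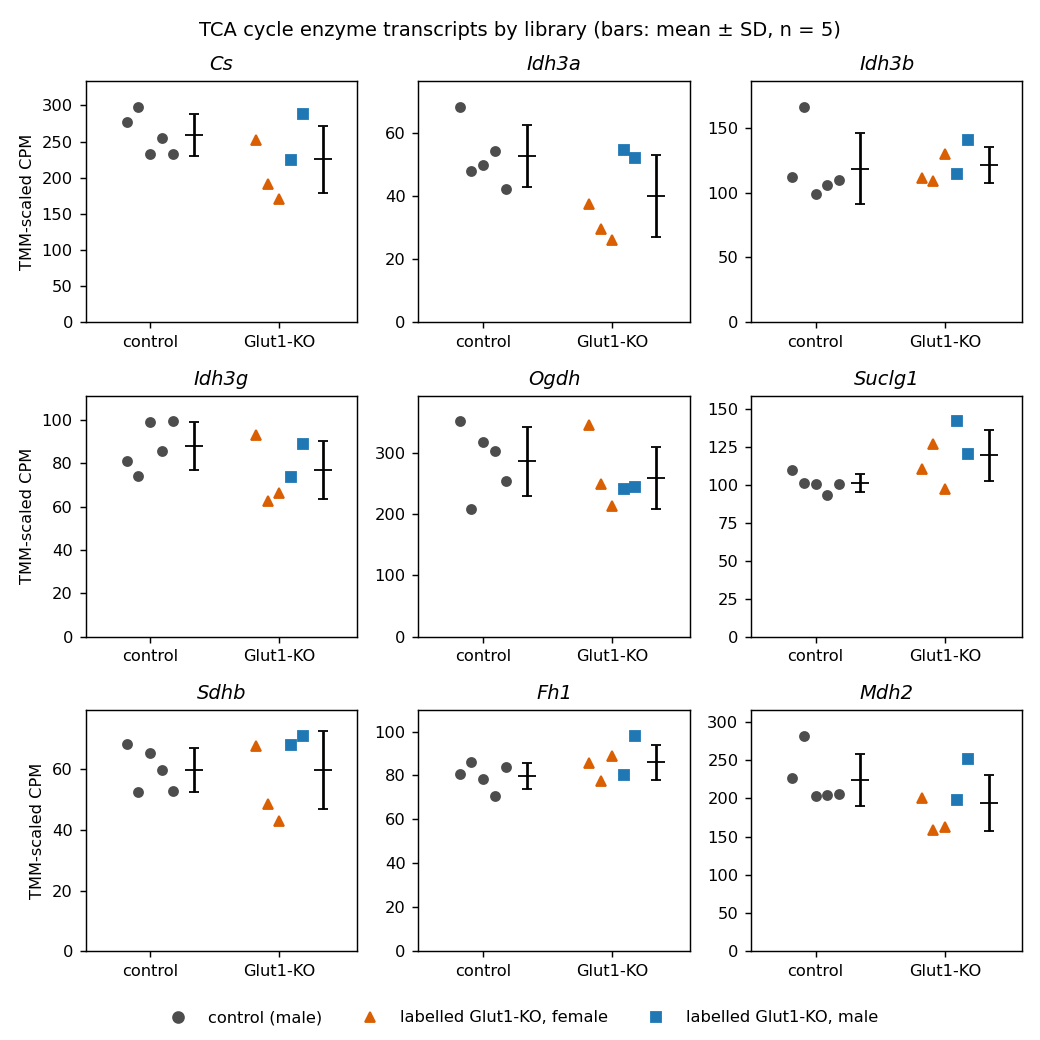
TMM-scaled CPM (y axis) of each of the 9 members in control and Glut1-KO labelled libraries (x axis), 1 point per library, with circles for male controls, triangles for female and squares for male libraries labelled Glut1-KO, and bars for the mean ± s.d. (n = 5). The 2 groups overlap for every gene, and for Idh3a the 3 triangles, at 26.0 to 37.4 CPM, lie below all circles and squares.

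Ogdh (ENSMUSG00000020456, chr11:6291633-6356642, plus strand) encodes the E1 component of the 2-oxoglutarate dehydrogenase complex, which makes succinyl-CoA. It was at 351, 208, 317, 303 and 253 CPM in control libraries 1 to 5 and at 345, 249, 214, 241 and 245 CPM in libraries 1 to 5 labelled Glut1-KO. Library 1 stood above the other 4 labelled Glut1-KO, and every value lay inside the control range. The log2 difference was -0.15 (SE 0.17, limma adjusted p = 0.856).

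Suclg1 (ENSMUSG00000052738, chr6:73248382-73276911, plus strand) encodes the alpha subunit of succinyl-CoA ligase, which makes succinate and a nucleoside triphosphate. It was at 110, 101, 100.3, 93.6 and 101 CPM in control libraries 1 to 5, the smallest control spread of the 9 members on the log2 scale (s.d. 0.08). In libraries 1 to 5 labelled Glut1-KO it was at 111, 127, 97.0, 142 and 120 CPM. All but library 3 were above every control. The log2 difference was 0.23 (SE 0.11, 95% interval -0.02 to 0.48, limma adjusted p = 0.677), and the exact permutation test gave p = 0.0635, the smallest of the 9 members, where 5 against 5 libraries allow 0.00794 at the least. Leaving out library 3 labelled Glut1-KO took the exact permutation p of Suclg1 to 0.00794, the smallest of 126 assignments. With that library out the groups no longer overlapped, so this p follows from the choice of library and is no separate evidence.

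The last 3 members carry succinate to oxaloacetate. Sdhb (ENSMUSG00000009863, chr4:140961203-140979193, plus strand), the iron-sulfur subunit of succinate dehydrogenase (complex II), was at 68.4, 52.5, 65.4, 59.8 and 52.9 CPM in control libraries 1 to 5. In libraries 1 to 5 labelled Glut1-KO it was at 67.7, 48.7, 43.0, 68.1 and 70.9 CPM. Here the libraries labelled Glut1-KO lay on both sides of the controls, with libraries 2 and 3 below all of them and library 5 above all. The log2 difference was -0.02 (SE 0.16, 95% interval -0.38 to 0.33, limma adjusted p = 0.982).

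Fh1 (ENSMUSG00000026526, chr1:175600374-175625635, minus strand), fumarate hydratase, was at 80.5, 85.9, 78.3, 70.9 and 84.0 CPM in controls and at 85.9, 77.4, 88.7, 80.3 and 97.9 CPM in libraries labelled Glut1-KO. It was the steadiest member over the 10 libraries, with a highest level 1.38 times its lowest. The log2 difference of Fh1 was 0.11 (SE 0.10, 95% interval -0.12 to 0.33, limma adjusted p = 0.824). Mdh2 (ENSMUSG00000019179, chr5:135778480-135790398, plus strand), which closes the cycle, was at 226, 281, 203, 204 and 205 CPM in controls and at 199.8, 159, 163, 197 and 251 CPM in libraries labelled Glut1-KO. For Mdh2 4 of the 5 libraries labelled Glut1-KO were below every control and library 5 was above 4 of the 5 controls. The log2 difference was -0.21 (SE 0.15, 95% interval -0.54 to 0.11, limma adjusted p = 0.763, exact permutation p = 0.167). Without library 5 labelled Glut1-KO the exact permutation p of Mdh2 was 0.00794, again the smallest of 126 assignments. Library 5 was the only one that overlapped the controls, so this p too follows from leaving it out.

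Between the libraries labelled Glut1-KO and the controls, 0 of 9 members were called by limma at an adjusted p of 0.05, and the share called among all genes tested was 0%. At an unadjusted p of 0.05 the members also numbered 0, where 7.68% of all genes (1223) passed. edgeR called 0 members and 0 genes. DESeq2 called 0 members and 215 genes (1.35%), with 1 member under an unadjusted p of 0.05. Suclg1, Fh1 and Idh3b were the 3 members with a difference above 0. The 9 log2 differences had a median of -0.15, beside -0.00 for all genes tested. Leaving out 1 library moved this median to between -0.23 (without library 1 labelled Glut1-KO) and -0.07 (without control 1), with -0.08 without library 3 labelled Glut1-KO. It turned to 0.04 in males alone, where 6 of 9 members were higher by sign. In females 7 of 9 were lower, at a median of -0.19. Sex as a covariate also gave 0.04, but all controls are male, so that fit compares only males with them. In these male libraries labelled Glut1-KO, Slc2a1 lay inside the control range. No member had groups that did not overlap, compared with 1.85% of all genes. The widest of the 95% intervals was that of Idh3a, 0.52 to 1.03 times the control level, and the narrowest that of Fh1, 0.92 to 1.25 times. These intervals treat each library as 1 sample and pool all libraries labelled Glut1-KO, so they do not bound the difference of a subset. In females against male controls the interval of Idh3a was 0.45 to 0.78 times.

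**Figure D3:**
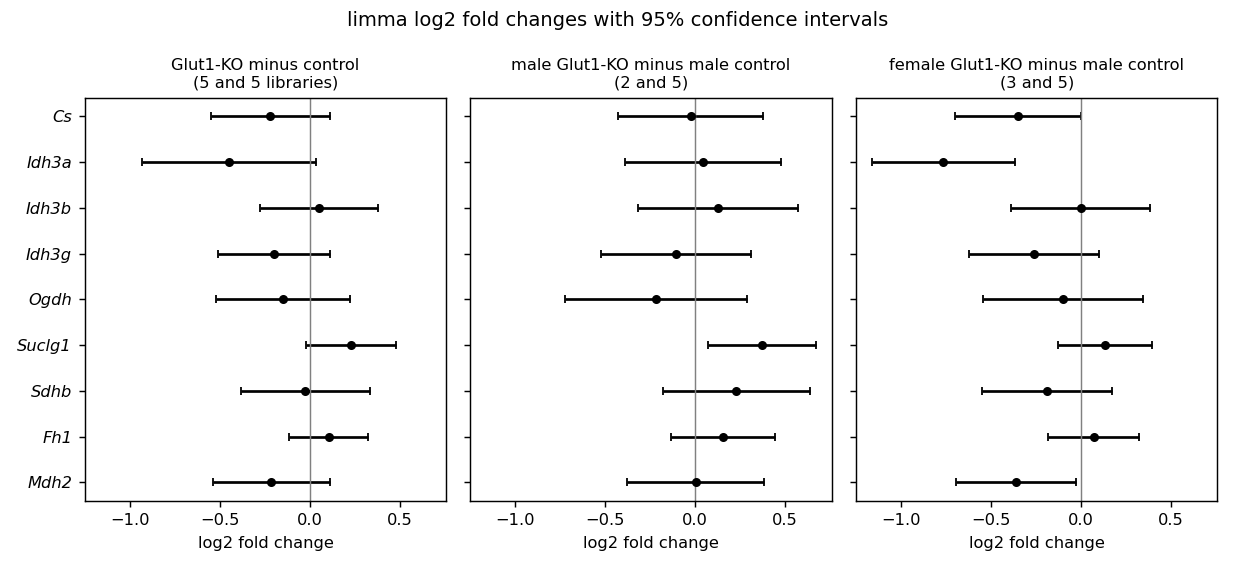
limma log2 fold changes (x axis) of the 9 members (y axis) with 95% confidence intervals, for all libraries labelled Glut1-KO against controls and for the male and the female ones separately. In the left panel every interval crosses 0, and in the right panel that of Idh3a runs from -1.16 to -0.37.

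Since only males can be compared with controls of the same sex, the 10 libraries were also fitted as 3 groups by the sex label (5 male controls, 2 male and 3 female libraries labelled Glut1-KO) with a common estimate of the spread. Idh3a had the largest difference. In the females its level was 31.0 ± 5.85 CPM (n = 3) against 52.7 ± 9.84 CPM (n = 5) in controls, a log2 difference of -0.76 (SE 0.18, 95% interval -1.16 to -0.37, limma adjusted p = 0.162). This missed the threshold after adjustment over all genes, under limma and under edgeR (adjusted p = 0.141, with 17 genes or 0.107% called), and passed it under DESeq2 (adjusted p = 0.0059), in which 680 genes (4.27%) were called. In the 2 males Idh3a was at 53.5 ± 1.78 CPM, a log2 difference from controls of 0.04 (SE 0.19, limma adjusted p = 0.954).

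The difference between male and female libraries labelled Glut1-KO was tested in itself. For Idh3a it was 0.81 on the log2 scale (SE 0.22, 95% interval 0.32 to 1.29, limma adjusted p = 0.133), with DESeq2 again under the threshold (adjusted p = 0.0215, 1196 genes or 7.51% called) and edgeR above it (adjusted p = 0.121, 12 genes or 0.0754% called). Leaving out each library in turn moved the limma estimate for females against controls between -0.90 and -0.64, with an adjusted p of 0.0992 to 0.439. Slc2a1 itself had log2 differences of -1.07 (SE 0.20, limma adjusted p = 0.0941) in females and 0.06 (SE 0.22, limma adjusted p = 0.943) in males. DESeq2 called Slc2a1 in females against controls (adjusted p = 0.000346) and between males and females (adjusted p = 0.00377). The Slc2a1 values had already shown this split, so its tests here describe it and are no separate evidence. The 3 libraries with the lowest Idh3a were thus the 3 with the lowest Slc2a1, and they were also the only females.

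The other members differed less in this split. Mdh2 was lower than in every control in all 3 females, at a log2 difference of -0.36 (SE 0.15, limma adjusted p = 0.313), and Cs was at -0.35 (SE 0.16, limma adjusted p = 0.344). Without library 3 labelled Glut1-KO the value of Cs was -0.23. Suclg1 was above every control in both males, at a log2 difference of 0.37 (SE 0.13, limma adjusted p = 0.386) in males and 0.13 (SE 0.12, limma adjusted p = 0.610) in females. Idh3b, in the same complex as Idh3a, had differences of 0.13 in males and -0.00 in females. Sdhb was at 0.23 in males (SE 0.18, limma adjusted p = 0.680) and -0.19 in females (SE 0.16, limma adjusted p = 0.603). Between males and females labelled Glut1-KO, Sdhb differed by 0.42 (SE 0.20, limma adjusted p = 0.296). Single libraries moved some of these values by over 1.5 times. Suclg1 in females was 0.04 without library 2 and 0.23 without library 3 labelled Glut1-KO. Sdhb in females was -0.37 without library 1 and -0.05 without library 3 labelled Glut1-KO. Idh3b in males was 0.0014 without library 5 and 0.28 without library 4 labelled Glut1-KO, and in females it was 0.13 without control 2.

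limma called 0 of 9 members in males against controls, where it called 0.0188% of all genes (3), 0 in females against controls, where it called 0.0691% (11), and 0 between males and females labelled Glut1-KO, where it called 0.0502% (8). With so few libraries, values that do not overlap are common. Idh3a and Mdh2 lay below every control in all 3 females, where 5.41% of all genes did so. Suclg1 lay above every control in both males, as did 8.54% of all genes, and Idh3a and Sdhb were higher in both males than in any female, as were 20.3%. The comparisons of males and of females with controls share the same 5 control libraries.

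**Figure D4:**
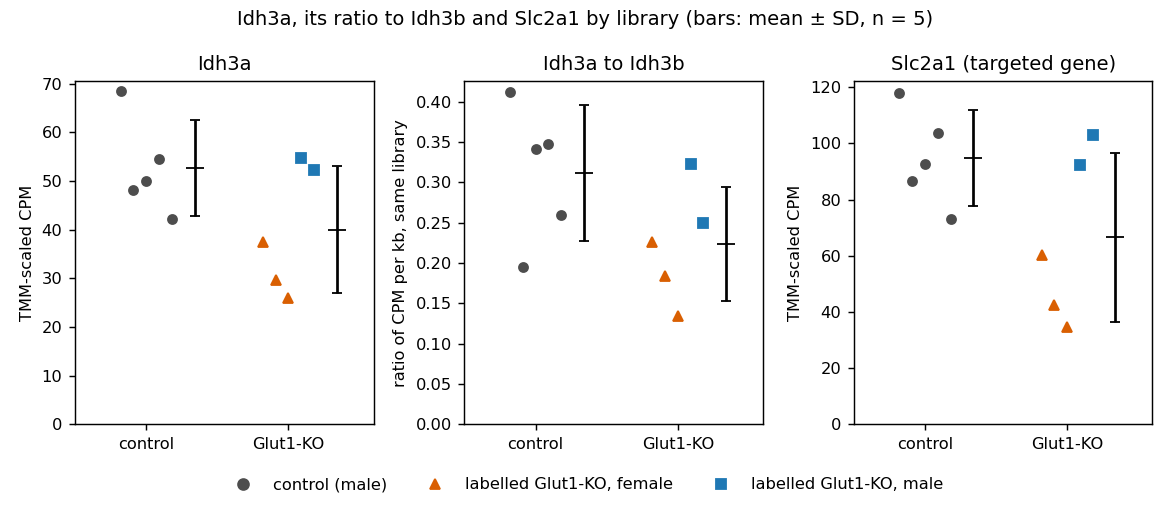
Idh3a in CPM, the ratio of Idh3a to Idh3b in CPM per kilobase, and Slc2a1 in CPM (y axes) in control and Glut1-KO labelled libraries (x axes), 1 point per library, with bars for the mean ± s.d. (n = 5). The 3 female libraries (triangles) lie lowest for Idh3a, at 26.0 to 37.4 CPM, and for Slc2a1, at 34.6 to 60.3 CPM, whereas their ratios, 0.135 to 0.227, overlap the controls.

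Marker levels were set beside the same split of the libraries labelled Glut1-KO. The differences given here are by sign or by range, except where a call is named. Markers of fibroblasts summed to 768 to 1173 CPM in the females and 2342 to 2626 CPM in the males, with controls at 1000.5 to 3303 CPM and 6 of 9 genes higher in males. Markers of alveolar type 1 cells ran the other way, at 3166 to 4148 CPM in females and 2287 to 2900 CPM in males, with 9 of 10 genes lower in males and controls at 2267 to 3281 CPM. The dissociation genes summed to 6332 to 7020 CPM in females, 4369 to 4827 CPM in males and 6541 to 8816 CPM in controls, and 1 of the 16, Dusp1, fell in males against controls (log2 difference -1.03, SE 0.11, limma adjusted p = 0.0422). This call was lost with library totals in place of TMM, with no filter on low counts and in 7 of the 10 fits that left out a library, in all of which 0 genes were called. Erythroid markers summed to 189 to 231.5 CPM in females and 407 to 751 CPM in males, and proliferation markers to 527 to 578 CPM and 403 to 501 CPM. With 2 against 3 libraries, 20.6% of all genes tested were lower in both males than in any female and 20.3% higher. Endothelial markers were lower by sign in males for 12 of 12 genes, 6 of them without overlap, with a median log2 difference of -0.95 and sums of 178 to 305 CPM in males and 282 to 628 CPM in females. Ciliated cell markers were lower by sign for 9 of 10, 6 without overlap, with a median of -1.46 and sums of 267 to 322 and 209 to 338 CPM, and club cell markers for 7 of 10, with sums of 1189 to 4238 and 2340 to 7490 CPM. Leukocyte markers were lower by sign in males for 11 of 11 genes, 3 without overlap, at 44.0 to 69.3 CPM in males and 65.1 to 79.8 CPM in females. Of 10 epithelial markers, 6 were higher and 2 lower in both males than in any female, with log2 differences from -0.89 to 1.67, while their sums overlapped (47536 to 57685 and 44212 to 57359 CPM). limma called none of these markers between males and females labelled Glut1-KO. In the females against the controls, the comparison with the largest Idh3a difference, endothelial markers were higher by sign for 12 of 12 genes (median log2 difference 0.93, controls at a summed 111 to 496 CPM), and 7 had an unadjusted p under 0.05, as did 14.6% of all genes tested. Leukocyte markers were higher by sign for 10 of 11 (median 1.09), 7 with an unadjusted p under 0.05 and 7 above every control, where 4.16% of all genes were. Ciliated cell markers were lower by sign for 8 of 10 (median -0.57, controls at 325 to 543 CPM), and club cell markers were split, 5 against 5 (controls at 1807 to 10348 CPM). Epithelial markers were lower by sign for 7 of 10 (median -0.29), 4 with an unadjusted p under 0.05. Erythroid markers were lower by sign for 5 of 5, 3 of them below every control, and dissociation genes for 11 of 16, 5 of them below every control, where 5.41% of all genes were. limma called 0 of these in the females. No tested marker was without counts over all libraries. The part of these differences in the level of Idh3a was not tested.

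Ratios within a library do not depend on how libraries were scaled to each other. Per kilobase, Idh3a was 0.195 to 0.412 times Idh3b in the 5 controls, 0.135 to 0.227 times in the 3 females and 0.250 to 0.322 times in the 2 males labelled Glut1-KO. This ratio overlapped between females and controls, since control library 2, where Idh3b was high, was at 0.195. Against Idh3g the Idh3a ratio was 0.226 to 0.450 in controls, 0.208 to 0.252 in females and 0.313 to 0.396 in males, with females and controls again overlapping. Against Idh2, the NADP-dependent mitochondrial isocitrate dehydrogenase, the Idh3a ratio was 0.0999 to 0.211 in controls. It was 0.0551 to 0.0732 in females and 0.138 to 0.148 in males, so that the 3 females lay below all other libraries. In these females Idh2 was itself higher by sign (log2 difference from controls 0.33, SE 0.18, limma adjusted p = 0.419). Sdhb was 0.392 to 0.584 times Sdha, the flavoprotein subunit of the same enzyme, in controls and 0.299 to 0.720 times in libraries labelled Glut1-KO. Suclg1 was 1.14 to 1.61 times Sucla2 in controls and 1.18 to 1.87 times in libraries labelled Glut1-KO. Mdh2 was 0.655 to 1.33 times the cytosolic Mdh1 in controls and 0.601 to 1.05 times in libraries labelled Glut1-KO.

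The 9 members were compared with their control means library by library. Among libraries labelled Glut1-KO, library 2 had 8 of 9 members below the control mean and library 3 had 7, with median log2 deviations of -0.29 and -0.40. Library 5 had 8 members above the control mean, at a median of 0.18. Libraries 1 and 4 were mixed, with 5 and 4 members above. In each of libraries 1, 2 and 3, the females, Idh3a was the member furthest below its control mean, by -0.47, -0.81 and -1.001 on the log2 scale. The summed level of the 9 members was 1180 to 1375 CPM in controls and 999 to 1356 CPM in libraries labelled Glut1-KO.

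Across the 10 libraries the members did not move as a block. Of the 36 pairs, 24 had a positive and 12 a negative Pearson correlation of log2 CPM, with a median r of 0.31. These are descriptions over 10 libraries that share a preparation, a sex split and perhaps mice. Cs and Mdh2, which stand on either side of oxaloacetate, had the highest value, with r = 0.93 and Spearman's rho = 0.93, and r = 0.89 without the 2 libraries furthest from the median of Cs. For Cs with Idh3a r was 0.78 and became 0.24 without such libraries, and for Idh3a with Sdhb it was 0.77 and became 0.32. Spearman's rho was 0.49 for Cs with Idh3a and 0.76 for Idh3a with Sdhb. The lowest value was that of Idh3b with Ogdh, r = -0.69. The s.d. of log2 CPM over the 10 libraries ran from 0.13 for Fh1, smaller than which were only 2.23% of genes tested, to 0.43 for Idh3a, with a median of 0.36 over all genes. By this measure, taken over genes of all levels, Fh1 was among the steadiest transcripts, and Idh3a was the only member above the median. The members were not compared with genes of similar level.

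Among 10047 genes with a mean of at least 10 CPM, those most like the mean standardized level of the 9 members over the 10 libraries were Tm2d2 (r = 0.961), Psmd7 (r = 0.960), Uqcr11 (r = 0.956), Vps37a (r = 0.951) and Cog4 (r = 0.949). Psmd7 encodes a proteasome subunit, Uqcr11 a subunit of respiratory complex III, and Vps37a and Cog4 subunits of membrane trafficking complexes. Uqcr11 was at 36.3 to 43.5 CPM in controls, 26.7 to 44.1 CPM in females and 40.2 to 59.6 CPM in males labelled Glut1-KO.

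The regions around the start sites of the members were searched for short motifs of regulators of mitochondrial genes, as the members varied partly together. RefSeq windows (GRCm38.p6) of 250 bases before and 50 bases after the start were at hand for 8 of the 9, all but Idh3a. The ETS motif (CCGGAAG, either strand) was found in 3 of the 8, in Idh3b, Idh3g and Sdhb, where 9.93% of 27025 genes in the table have a window that holds it. The letters are in capitals in the stretches below, which are shown because they allow the 3 sites to be set side by side, at chr2:130284440-130284466 on the minus strand, chrX:73786985-73787011 on the minus strand and chr4:140961267-140961293 on the plus strand. The motif of Idh3b reads as its reverse complement.
Idh3b: accgcgctcgCTTCCGGcgtcacttcc
Idh3g: gctctaggcaCCGGAAGggggcgtaag
Sdhb: ctcggagaaaCCGGAAGcggccttcca
The site of Idh3b lies across the RefSeq start, that of Idh3g lies 97 bases before it, and that of Sdhb lies just after it. The NRF1 motif (GCATGCG) was found in Ogdh and Sdhb (4.01% of all genes), the ERR motif (AAGGTCA) in Ogdh (5.38%) and the E-box (CACGTG) in Ogdh (8.09%). Ogdh has 6 windows in the table and so had more sequence to match. The DR1 motif, the repeat read by PPAR with RXR, was found in none of the 8 (0.0481% of all genes). Idh3b, Idh3g and Sdhb had log2 differences of 0.05, -0.20 and -0.02 between libraries labelled Glut1-KO and controls. A match of letters is a description of the sequence, and binding was not measured.

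Cs and Mdh2, the pair with the highest correlation, held none of the 5 motifs in their windows. Their sequence directly before the annotated gene start is shown for comparison, at chr10:128337477-128337733 and chr5:135778399-135778479, both on the plus strand, with no letters in capitals because no motif was matched.
Cs: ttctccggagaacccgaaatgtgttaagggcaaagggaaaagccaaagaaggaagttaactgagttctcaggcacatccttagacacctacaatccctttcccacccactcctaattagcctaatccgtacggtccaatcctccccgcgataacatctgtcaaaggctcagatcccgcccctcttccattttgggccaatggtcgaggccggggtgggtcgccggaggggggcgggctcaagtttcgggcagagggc
Mdh2: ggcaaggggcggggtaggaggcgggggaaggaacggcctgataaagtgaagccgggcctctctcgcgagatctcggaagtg
Over these stretches 55.6% of bases were G or C for Cs and 65.4% for Mdh2.

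The surroundings of the cycle were counted in 8 further lists, with 75 genes in all, of which 75 were tested and 0 were called by limma in any of the comparisons. At an unadjusted p of 0.05, 5 of the 75 passed for libraries labelled Glut1-KO against controls, where 7.68% of all genes did, and 22 passed for males against females labelled Glut1-KO, where 18.6% of all genes did. For libraries labelled Glut1-KO against controls, the log2 difference was above 0 for 46 of the 75 and below 0 for 29, and its median was 0.06.

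Other subunits of the cycle's enzymes were higher by sign in 7 of 9 cases. Sdhc, a membrane anchor of complex II beside Sdhb, was at 83.6 to 124 CPM in controls and 106 to 152 CPM in libraries labelled Glut1-KO (log2 difference 0.34, SE 0.14, limma adjusted p = 0.624). Ogdhl, a paralog of Ogdh, was low at 0.633 to 5.95 CPM in controls and 2.35 to 18.3 CPM in libraries labelled Glut1-KO (log2 difference 1.27, SE 0.65, limma adjusted p = 0.686). Sdhd, the other anchor of complex II, was at 78.3 to 85.1 CPM in females and 104 to 125 CPM in males.

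Of the NADP-linked and cytosolic counterparts 6 of 8 were higher by sign. Idh1, the cytosolic isocitrate dehydrogenase, was at 189 to 298 CPM in controls and 284 to 365.5 CPM in libraries labelled Glut1-KO (log2 difference 0.40, SE 0.14, limma adjusted p = 0.531). Idh2 was at 146 to 251.6 CPM and 189 to 278 CPM (log2 difference 0.20, SE 0.17, limma adjusted p = 0.799). In the males alone the log2 differences from controls were 0.38 for Idh1 and -0.00 for Idh2. Me1, cytosolic malic enzyme, was at 470.1 to 568.5 CPM in females and 639 to 748 CPM in males, and Me3, a mitochondrial malic enzyme, was under 1 CPM throughout.

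Among 14 genes of pyruvate entry 8 were higher by sign. Mpc2, a subunit of the mitochondrial pyruvate carrier, was at 35.7 to 44.3 CPM in controls and 44.3 to 73.5 CPM in libraries labelled Glut1-KO (log2 difference 0.46, SE 0.15, limma adjusted p = 0.482). Pcx, pyruvate carboxylase, which makes oxaloacetate for Cs, was at 82.7 to 250.4 CPM and 192 to 287 CPM (log2 difference 0.59, SE 0.29, limma adjusted p = 0.677). Pdha1, the catalytic subunit of pyruvate dehydrogenase, was at 118 to 191 CPM in females and 198 to 239 CPM in males, and Pdk2, a kinase that inhibits it, was at 45.3 to 62.3 CPM in females and 24.5 to 30.2 CPM in males. The male and female differences were 0.58 for Pdha1 (SE 0.19, limma adjusted p = 0.175) and -0.91 for Pdk2 (SE 0.25, limma adjusted p = 0.137).

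Of 6 genes of glutamine and aspartate entry, 5 were higher by sign in males than in females labelled Glut1-KO. Got1, cytosolic aspartate aminotransferase, had the smallest adjusted p of all 75 genes in that comparison, at 28.6 to 42.4 CPM in females, 79.9 to 93.7 CPM in males and 35.9 to 54.5 CPM in controls (log2 difference 1.29, SE 0.23, limma adjusted p = 0.0906). Gpt, an alanine aminotransferase, was at 40.4 to 48.5 CPM in females and 37.5 to 44.6 CPM in males. Of 5 mitochondrial carriers, Slc25a12 and Slc25a13, which exchange aspartate for glutamate, had log2 differences of 0.33 and 0.24 from controls, and Slc25a10, the dicarboxylate carrier, one of 0.16. Of 7 genes of succinate dehydrogenase assembly and lipoate attachment, Sdhaf1, Sdhaf2 and Sdhaf4 had differences of 0.25, 0.05 and 0.24, and Lipt2 one of -0.31. None of these passed the limma test.

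Markers of mitochondrial mass had 7 of 14 genes higher by sign against controls, with a median of 0.00. In males 13 of 14 were higher by sign than in controls (median 0.26), and 5 lay above every control, where 8.54% of all genes did. In females 11 of 14 were lower than in controls by sign (median -0.19). Between males and females labelled Glut1-KO, by contrast, 14 of 14 were higher in males by sign, with a median log2 difference of 0.32 beside 0.24 for the 9 members and -0.01 for all genes, and 0 were called. Their summed level was 2375 to 2547 CPM in males, 1839 to 1896 CPM in females and 1833 to 2401 CPM in controls. Hspd1, a matrix chaperone, was at 439 to 511 CPM in males and 257 to 325 CPM in females, Hspe1, its partner, at 89.5 to 114 CPM and 78.7 to 86.6 CPM, and Cycs, cytochrome c, at 106 to 117 CPM and 46.6 to 69.7 CPM. Phb, a prohibitin of the inner membrane, was at 22.8 to 24.0 CPM and 17.7 to 25.0 CPM.

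Of 12 regulators of mitochondrial biogenesis 8 were higher by sign against controls. Myc was at 33.8 to 37.7 CPM in females, 55.3 to 71.1 CPM in males and 48.5 to 80.3 CPM in controls (females against controls -0.85, SE 0.17, limma adjusted p = 0.117). Esrra, the nuclear receptor ERR alpha, was at 21.3 to 32.0 CPM in females and 41.0 to 48.1 CPM in males (difference 0.77, SE 0.18, limma adjusted p = 0.117). Ppara, a nuclear receptor for fatty acids, was at 2.63 to 5.18 CPM in controls and 3.49 to 11.1 CPM in libraries labelled Glut1-KO (log2 difference 0.66, SE 0.36, limma adjusted p = 0.715). In the females Ppara was at 3.85 to 11.1 CPM (difference from controls 1.00, SE 0.36, limma adjusted p = 0.271). In the males it was at 3.49 to 4.20 CPM (difference from controls 0.11, SE 0.46, limma adjusted p = 0.950).

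**Figure D5:**
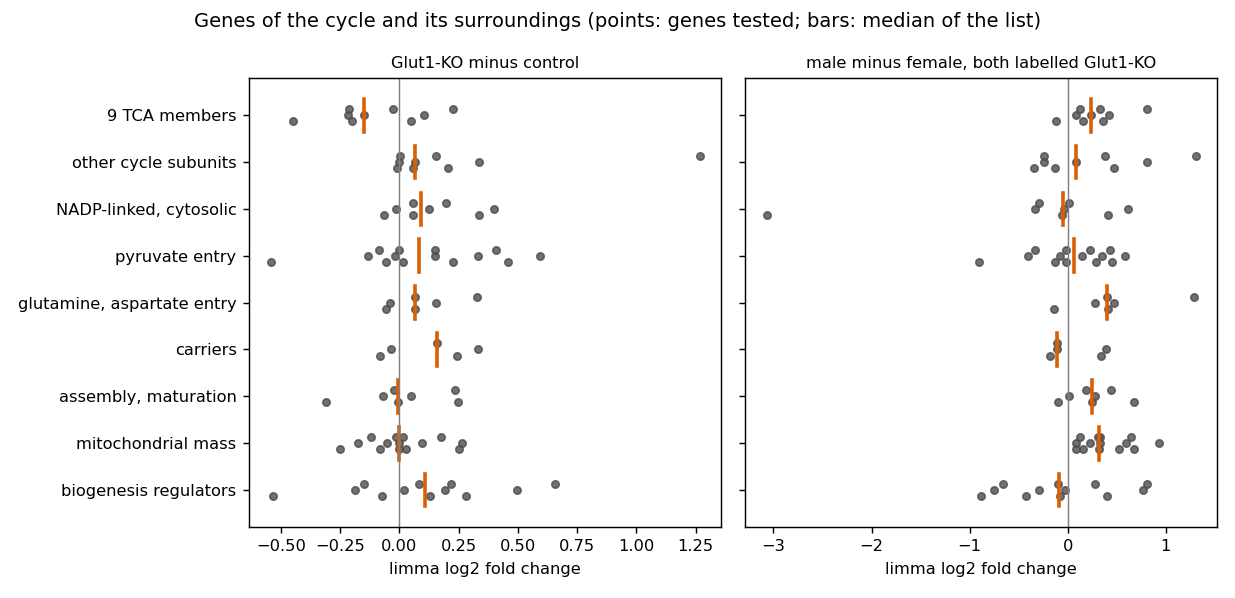
limma log2 fold changes (x axes) of the genes of each list (y axis), 1 point per gene, with a bar at the list's median, for all libraries labelled Glut1-KO against controls and for male against female libraries labelled Glut1-KO. On the left the medians lie near 0, that of the 9 members at -0.15, and on the right all 14 genes of mitochondrial mass lie above 0.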

How the data were processed

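Polyadenylated RNA of CD45-depleted tumor cell suspensions was sequenced from stranded libraries. Per the labels, the authors used bcl2fastq 2.17, cutadapt 1.4.2, HISAT2, featureCounts 1.4.4 and edgeR on build mm10, and deposited raw read counts per gene. The study's methods name another version of cutadapt. The annotation release and strand setting of the counting are not given in the sources used here. The table of 39017 genes held the same values as the 10 single files, and 37 mitochondrially encoded genes were listed at 0 counts. Groups, replicate numbers and sex came from the labels.

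Genes were kept by filterByExpr (minimum count 10, minimum total 15), leaving 15922. Counts were scaled by TMM and fitted with voom (prior count 0.5) and limma 3.58.1 in R 4.3.3, following the study's methods, with Benjamini-Hochberg adjustment over all genes tested and a threshold of 0.05. Sex groups were fitted as 3 groups. edgeR 4.0.16 (quasi-likelihood), DESeq2 1.42.0 and exact permutation of libraries were run beside it. Other alternatives were library totals in place of TMM, no filter, a mean of at least 20 TPM, sex as a covariate, males only, a replicate block, sums per name number, and leaving out each library. The fits were tested on simulated data, from which no value is reported here. Levels are TMM-scaled CPM. Exon lengths and coordinates came from GENCODE M21, which holds 96.6% of the IDs, and promoter windows from RefSeq. All fits but that on sums per name number treat each library as 1 sample.

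The members and the gene lists were chosen with earlier results of these data known. Named were the 9 members, Slc2a1 and, of each of 8 further lists, the 2 genes with the smallest limma p in each of the 5 against 5 and the male against female comparison. Some genes named by this rule are not reported here. The 5 genes most alike were chosen by Pearson's r. Epcam, Sftpc, Dusp1 and the partner subunits in ratios were chosen after their values were seen.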

Additional observations from a re-analysis of the deposited data

Results flagged for a closer look

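Each group of 5 libraries was searched for a library whose gap to the nearest other one exceeded 0.71 of the group's range (Dixon's limit for 5 values). Of 60 groups of values, 6 passed, where about 3 would by chance (1 in 20).

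Among the members, Idh3b was at 166 CPM in control library 2, with the other controls at 98.9 to 112 CPM. Without that library the log2 difference of Idh3b between libraries labelled Glut1-KO and controls was 0.18 in place of 0.05. Ogdh was at 345 CPM in library 1 labelled Glut1-KO, with the other 4 at 214 to 249 CPM, and without that library its log2 difference was -0.25 in place of -0.15. It was -0.25 without control 2, -0.08 without library 3 labelled Glut1-KO and -0.07 without control 1.

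Control library 2 also had the highest total, 49760462 counts beside 40122224 to 41439285, and the highest sum of proliferation markers, 903 CPM beside 459 to 503 CPM. Leukocyte markers summed to 58.4 CPM in control library 1, with the other controls at 35.3 to 41.7 CPM. Erythroid markers summed to 1462 CPM in control library 3, with the other controls at 237 to 463 CPM.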

How the results depend on the processing

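Of 180 values of the 9 members under alternatives for libraries labelled Glut1-KO against controls, 168 kept their direction and side of the threshold and 12 changed sign, with adjusted p between 0.207 and 0.999. With sex as a covariate Idh3a was at 0.0427, Sdhb at 0.228, Mdh2 at 0.0025, Slc2a1 at 0.0613 and the members' median at 0.0427. With males only they were at 0.0417, 0.227, 0.0016, 0.0604 and 0.0417. As all controls are male, the covariate fit also compares only males with them, and these settings are not separate checks. Sdhb was 0.0013 under DESeq2. Leaving out each library gave -0.0080 to 0.180 for Idh3b (below 0 without control 3), -0.0860 to 0.0885 for Sdhb (above 0 without control 1 or 3 or library 2 or 3 labelled Glut1-KO) and 0 to 1 member under an exact permutation p of 0.05. It moved Cs from -0.22 to -0.12 (without library 3 labelled Glut1-KO), Idh3g from -0.20 to -0.13 (library 2), Mdh2 from -0.21 to -0.13 (control 2) and Fh1 from 0.11 to 0.06 (control 4) or 0.07 (library 5). Idh3b moved by over 1.5 times from 0.05 without any library but control 1 or library 4 labelled Glut1-KO.

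The number of all genes called against controls (0 by limma) was 215 under DESeq2, 3 with the sex covariate, 1 for males only, 2 on sums per name number, 9 without both male libraries labelled Glut1-KO (added after the data were seen) and 0 to 1 leaving out each library (1 without control 3). For males against controls (3) it was 0 with library totals, 361 under DESeq2, 0 with no filter, 8 above 20 TPM and 0 to 2 leaving out each library, below 3 for all 10. For females against controls (11) it was 6 with library totals, 17 under edgeR, 680 under DESeq2 and 5 to 17 leaving out each library, at 5 without control 1, 2, 4 or 5, 7 without library 2, 3, 4 or 5 labelled Glut1-KO and 17 without library 1. For males against females (8) it was 1196 under DESeq2 and 5 to 10 leaving out each library, at 5 without control 1, 3 or 4. Members called numbered 0 throughout, except 1 (Idh3a) under DESeq2 in each of the last 2 comparisons. The causes were not tested.

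Replicate numbers did not pair the libraries: correlations of same-numbered deviations were -0.132 to 0.197, and 1 of 5 controls correlated best with its own number. With a replicate block 0 genes and 0 members were called, and the median of the members was -0.14. At 5 against 5 libraries the exact test cannot pass after adjustment unless many genes reach its smallest p.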
